A study of Mus musculus with 10 samples.

Results

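Members of the mouse carboxylesterase family, Ces1b, Ces1c, Ces1d, Ces1e, Ces1f, Ces1g, Ces2a, Ces2e, Ces3a and Ces3b, were followed in the livers of ethanol-fed mice of a study of hepatic NIK, the NF-kB inducing kinase encoded by Map3k14. These 10 genes were taken by symbol from a deposited table of 55401 genes, which holds 20 Ces genes in all, and all 10 were found. Liver RNA was sequenced from 5 mice labelled NIKhKO and 5 labelled NIKflox. Mice of both genotypes were fed for 4 weeks on the Lieber-DeCarli liquid diet containing 5% ethanol, so that no liver in the comparison was free of ethanol. The series text writes these genotypes NIKHKO and NIKF/F. The Cre driver, the deleted part of the gene, the strain, sex and age of the mice, and whether mice of a genotype shared a litter are not given in the sources used here. The p-values below therefore measure the spread between these libraries.

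Carboxylesterases are serine hydrolases of the lumen of the endoplasmic reticulum. They split esters, amides and thioesters, and liver holds them at high levels, where they clear ester drugs and turn over stored acylglycerols. In mice the Ces1 genes include Ces1d, the triacylglycerol hydrolase that mobilises stored fat for secretion in very low density lipoprotein (VLDL), and Ces1c, which is secreted into plasma. Ces2 enzymes prefer esters with a bulky alcohol group, and the substrates of the Ces3 enzymes are less well defined.

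All Ces genes of the table lie on chromosome 8, in a pair of clusters 11198172 bases apart. Coordinates are those of the table and match mouse GRCm38. Ces1b to Ces1g lie in the first cluster, on the minus strand, from 93056728 to 93337308. Ces2a, Ces2e, Ces3a and Ces3b lie in the second, on the plus strand, from 104734003 to 105093929. Ces1d and Ces1e are the closest members, 3379 bases apart, and 25339 bases separate Ces3a from Ces3b. The copies are alike in sequence, which bears on how reads can be assigned to them. Coding sequences of Ces3a and Ces3b (GENCODE M21) were identical at 1635 of 1716 aligned bases (95.3%), with a longest shared run of 194 bases. Ces1b and Ces1c were identical at 1513 of 1665 aligned bases (90.9%), with a longest shared run of 118 bases.

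The first 90 coding bases, inside exon 1 of both genes, hold 15 of the 81 differences between Ces3a and Ces3b. They are shown because both genes carry the largest differences between the genotypes, and because this stretch tells their reads apart. Capitals mark the bases that differ. The Ces3a stretch is at chr8:105048621-105048710 and the Ces3b stretch at chr8:105083775-105083864, both on the plus strand of GRCm38.
Ces3a: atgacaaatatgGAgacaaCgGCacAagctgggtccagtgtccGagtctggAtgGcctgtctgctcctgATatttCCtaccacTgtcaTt
Ces3b: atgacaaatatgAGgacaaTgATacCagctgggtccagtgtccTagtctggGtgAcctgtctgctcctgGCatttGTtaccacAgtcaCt

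Promoter windows from RefSeq (GRCm38.p6) matched 7 of the 10 members; Ces1d, Ces1f and Ces3a had no entry. Each window below is the 250 bases before a start site. Ces3b (chr8:105083505-105083754, plus strand) is shown as the Ces3 promoter of the table, with capitals at a CCAAT box (CCAAT) and a TATA box (TATAAA). Ces1e (chr8:93229620-93229869, minus strand) is shown as the member with the largest difference in the other direction.
Ces3b: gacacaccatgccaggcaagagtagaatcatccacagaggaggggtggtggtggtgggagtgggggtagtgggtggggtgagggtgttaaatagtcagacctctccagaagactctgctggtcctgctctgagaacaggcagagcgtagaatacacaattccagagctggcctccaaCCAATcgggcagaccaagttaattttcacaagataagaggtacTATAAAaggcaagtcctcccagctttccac
Ces1e: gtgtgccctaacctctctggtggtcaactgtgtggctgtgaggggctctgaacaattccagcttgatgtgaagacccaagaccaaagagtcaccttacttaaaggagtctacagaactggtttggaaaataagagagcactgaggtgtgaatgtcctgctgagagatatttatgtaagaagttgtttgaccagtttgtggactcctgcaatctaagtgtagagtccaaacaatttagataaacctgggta

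On either strand, TATAAA stood in 12.9% and CCAAT in 34.3% of 27025 promoter windows of this length. The half-site of nuclear receptors (AGGTCA) stood in 13.8% of them and the STAT site TTCNNNGAA in 7.06%. In the Ces3b window TATAAA began 30 bases and CCAAT 73 bases before the start site, and the other 2 motifs were not in it. None of the 4 motifs was in the Ces1e window. Of the 7 windows, that of Ces2a was the one with AGGTCA, 226 bases before the start site, and none held TTCNNNGAA. No pair of these motifs overlaps in the Ces3b window, and a match is only a match of letters.

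Ces1b (chr8:93080018-93080267) and Ces1c (chr8:93131284-93131533), both on the minus strand, are shown as near copies whose levels lie far apart. Capitals mark the longest run that both windows share, of 58 bases.
Ces1b: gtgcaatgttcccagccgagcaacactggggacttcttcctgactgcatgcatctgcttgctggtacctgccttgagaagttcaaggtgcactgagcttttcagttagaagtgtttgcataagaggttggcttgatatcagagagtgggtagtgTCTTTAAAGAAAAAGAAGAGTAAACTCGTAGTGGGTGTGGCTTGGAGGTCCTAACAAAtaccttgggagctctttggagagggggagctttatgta
Ces1c: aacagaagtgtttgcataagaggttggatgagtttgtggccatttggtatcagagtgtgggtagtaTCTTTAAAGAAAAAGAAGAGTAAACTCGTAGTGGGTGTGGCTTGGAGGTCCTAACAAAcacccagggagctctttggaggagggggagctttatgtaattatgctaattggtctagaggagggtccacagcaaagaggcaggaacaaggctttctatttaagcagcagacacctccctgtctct

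Of all 100-base windows of the longest coding transcript, 177 were shared between Ces3a and Ces3b, which is 9.09% of the Ces3a windows and 7.68% of the Ces3b windows. Between Ces1b and Ces1c 24 windows were shared, 1.29% of the Ces1b windows and 1.39% of the Ces1c windows. Ces2a shared 200 windows (10.7%) with the annotated transcript Gm7208. The windows of Ces1d, Ces1e, Ces1f, Ces1g and Ces2e were in transcripts of no other gene. The levels of Ces3a, Ces3b, Ces1b, Ces1c and Ces2a are therefore uncertain to the extent that the authors' counting split shared reads.

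Total estimated counts ran from 53225028 to 64321202 in NIKhKO libraries and from 47161869 to 65052525 in NIKflox libraries. Map3k14 read 0.347 to 0.443 FPKM (fragments per kilobase of transcript, scaled to sequencing depth) in NIKhKO livers, below the 0.483 to 0.899 FPKM of NIKflox livers, and was under the level tested by edgeR. The 10 hepatocyte markers summed to 56051 to 70814 FPKM in NIKhKO and to 54923 to 66137 FPKM in NIKflox livers. Some libraries stood apart. The 10 heart muscle markers summed to 0.118 to 0.211 FPKM in NIKhKO libraries, against 7.02 FPKM in NIKflox 2, 32.1 FPKM in NIKflox 4 and 0.0109 FPKM in the lowest NIKflox library. The 9 adipocyte markers other than Car3, which hepatocytes also express, summed to 4.00 to 5.77 FPKM in NIKhKO libraries and to 30.4 FPKM in NIKflox 2, with the lowest NIKflox library at 3.82 FPKM. Values without NIKflox 2 and 4 are given below for every member but Ces1c. Cholangiocyte markers summed to 21.3 to 36.3 FPKM in NIKhKO and 36.7 to 56.1 FPKM in NIKflox livers, with 0 of 6 tested markers called, all 6 log2 fold changes negative and 3 of them at an unadjusted p below 0.05. B cell markers summed to 5.31 to 14.4 FPKM in NIKhKO and 3.60 to 6.58 FPKM in NIKflox livers, with 0 of 5 called and all 5 at an unadjusted p below 0.05. No summed list of macrophage, endothelial, stellate, T and NK cell, or pancreas and gut markers separated the genotypes, and no tested marker of these lists was called. All 8 stellate log2 fold changes were negative, 1 of them at an unadjusted p below 0.05. Endothelial markers had 7 negative and 1 positive, and macrophage markers 1 negative and 8 positive, with 0 at that level. Over all genes tested, 9.99% had an unadjusted p below 0.05. The part of these cells in the differences below was not tested, and in whole liver fewer cells of a type cannot be told apart from less RNA per cell.

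The carboxylesterases covered a wide range of levels. Ces1c was the highest in every library and ranked 47 by mean FPKM among 12730 genes tested. It averaged 1562 ± 143 FPKM in NIKhKO and 1628 ± 108 FPKM in NIKflox livers (SD, n = 5 each), which was 61.9% and 60.4% of the summed FPKM of the 10 members. Ces1d followed with 343 ± 25.7 FPKM in NIKhKO and 319 ± 22.5 FPKM in NIKflox livers. Below Ces1d the order differed between the genotypes. In NIKhKO livers Ces1g (129 FPKM) came next, then Ces3a (106 FPKM), Ces1f, Ces2e, Ces2a, Ces1e, Ces1b and Ces3b (20.7 FPKM). In NIKflox livers Ces3a (243 FPKM) came next, then Ces1g (114 FPKM), Ces1f, Ces2a, Ces2e, Ces1b, Ces1e and Ces3b (43.0 FPKM). In NIKhKO livers the ranges over 5 libraries were apart between Ces1c and Ces1d and between Ces1d and Ces1g. In NIKflox livers they were apart only between Ces1c and Ces1d, and all other neighbours in either order overlapped.

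**Figure D1:**
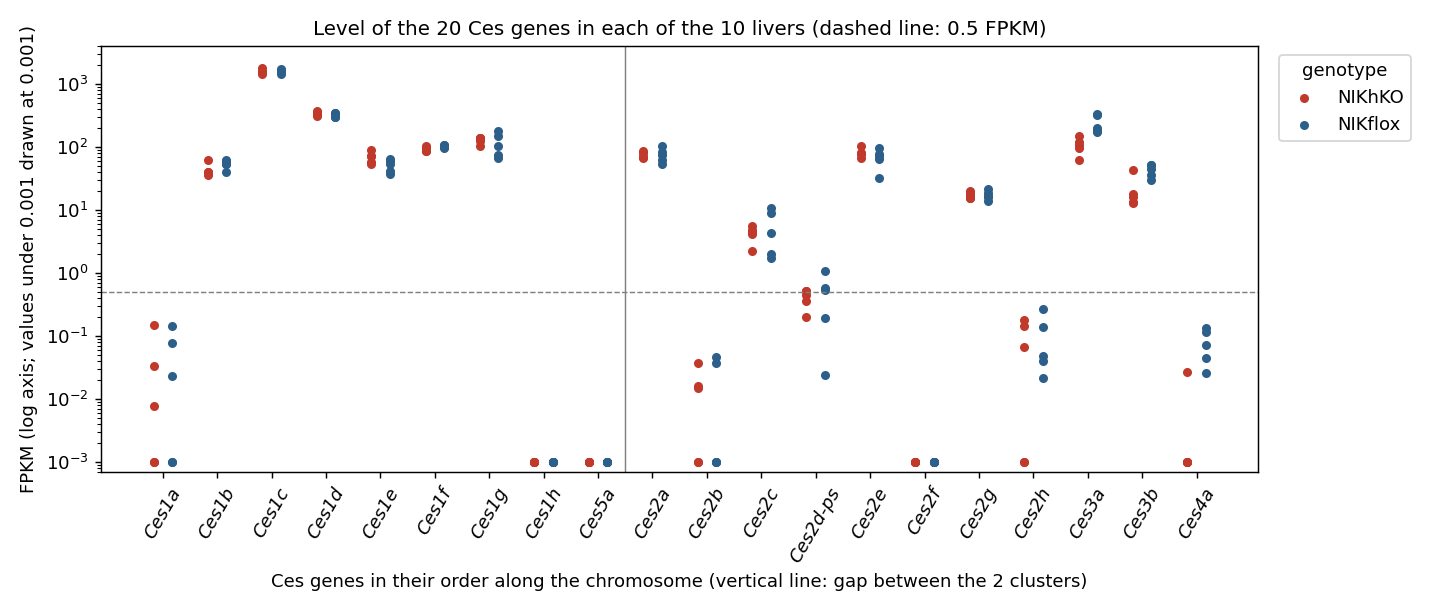
FPKM of the 20 Ces genes on a log axis, in their order along the chromosome, with 1 point per liver (5 NIKhKO, 5 NIKflox). The 10 members lie between 12.9 and 1799.8 FPKM, while 8 of the other 10 genes have a mean under the dashed line at 0.5 FPKM.

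The 10 Ces genes that are not members had lower mean levels. Ces2g averaged 17.4 ± 1.96 FPKM in NIKhKO and 17.3 ± 2.65 FPKM in NIKflox livers (SD, n = 5 each). Ces2c, which hydrolyses acylglycerols in the mouse intestine, averaged 4.22 ± 1.21 FPKM in NIKhKO and 5.56 ± 4.12 FPKM in NIKflox livers. These were the only 2 of the 10 with a mean of at least 0.5 FPKM, and neither was called by edgeR (adjusted p = 0.90 for Ces2g and 0.88 for Ces2c). Ces1h, Ces2f and Ces5a had a count of 0 in all 10 libraries. Ces4a had counts of 0 to 4 in NIKhKO and 4 to 22 in NIKflox libraries, and was named after its values were seen. Its mean was 0.042 FPKM, under the level tested, and low counts pile up at 4, so these counts may stand for few fragments.

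None of the 10 members passed the test of genotype. In edgeR's quasi-likelihood test over 12730 genes, 0 of 10 members had an adjusted p below 0.05, where 0.0236% of all genes tested did. At an unadjusted p below 0.05 stood 3 of 10 members, Ces3a, Ces1e and Ces3b, where 9.99% of all genes did. Of the 10 log2 fold changes (NIKhKO over NIKflox) 5 were positive and 5 negative with a median of 0.02, beside 48.2% positive and a median of −0.01 over all genes tested. For 1 of 10 members, Ces3a, all NIKhKO values lay apart from and below all NIKflox values. Among all genes tested, 1.59% were apart in that direction. DESeq2 called 1 of 10 members, Ces3a again, where it called 1.66% of the genes it adjusted.

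**Figure D2:**
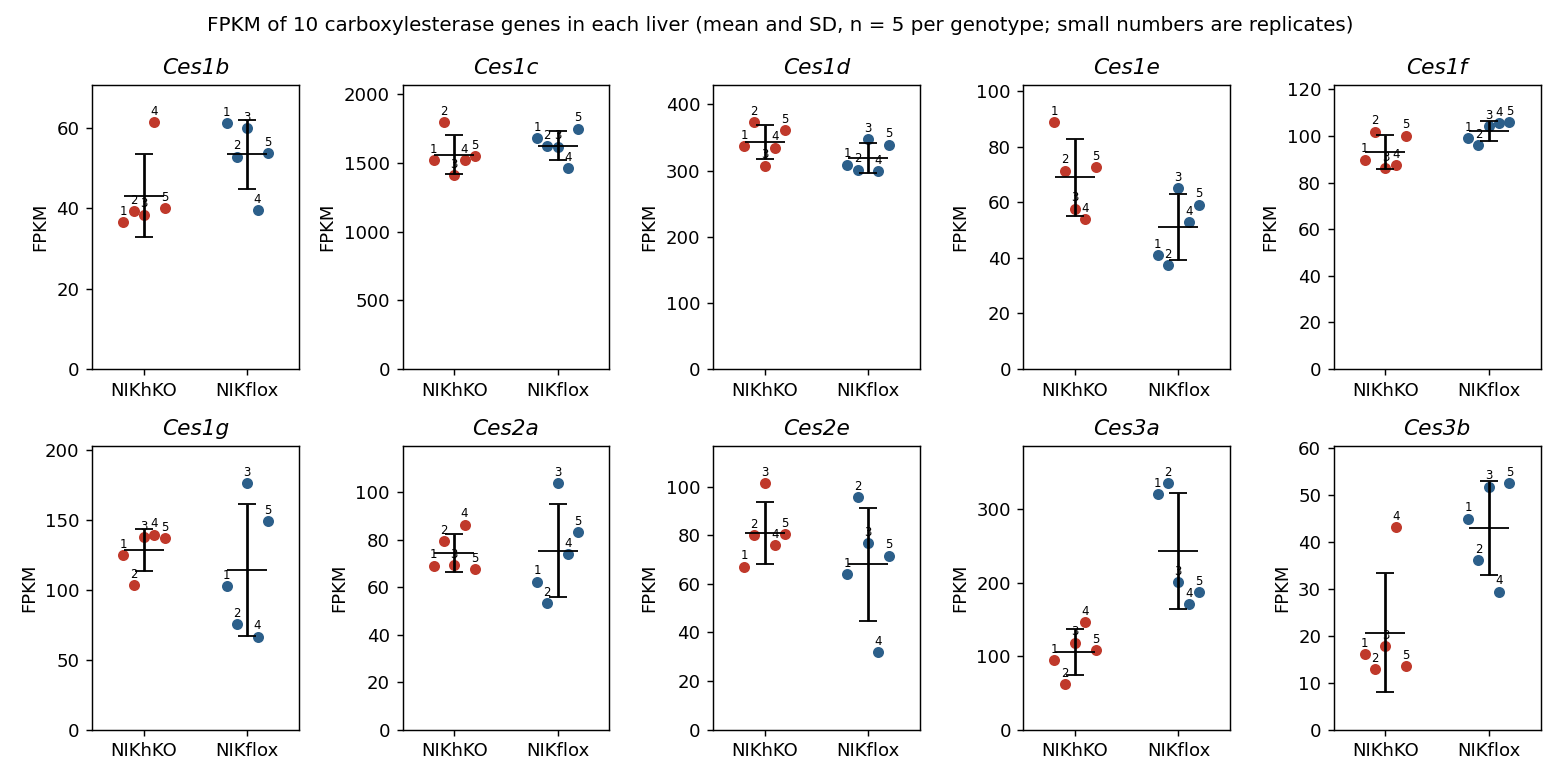
FPKM of each member in each liver, NIKhKO left and NIKflox right, on axes that start at 0, with points numbered by replicate and bars for the mean and SD (n = 5). The 5 NIKhKO points of Ces3a, up to 146.4 FPKM, all sit below the NIKflox points, and NIKhKO 4 sits apart from the other NIKhKO livers for Ces1b and Ces3b.

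The Ces3 genes held the largest differences. Ces3a (ENSMUSG00000069922, 105048601 to 105058413) read 94.6, 62.1, 118.6, 146.4 and 108.8 FPKM in NIKhKO 1 to 5, against 320.4, 336.3, 201.4, 171.4 and 187.7 FPKM in NIKflox 1 to 5. Every NIKhKO liver lay below every NIKflox liver, and NIKflox 1 and 2 stood above the other NIKflox livers. The means were 106 ± 31.1 FPKM in NIKhKO and 243 ± 78.4 FPKM in NIKflox (SD, n = 5 each), so that the NIKhKO mean was 43.6% of the NIKflox mean. The edgeR log2 fold change was −1.14 (SE 0.28, 95% interval −1.74 to −0.53), at an adjusted p of 0.23. By unadjusted p, which was 0.0016, Ces3a ranked 87 of the genes tested. Exact two-sided permutation of the livers gave p = 0.0079 without adjustment, and 252 arrangements allow none smaller. Any gene whose groups do not overlap reaches this p, so it adds nothing to the ranges. DESeq2 gave an adjusted p of 0.0058. Without NIKflox 2 and 4 the log2 fold change was −1.10 (adjusted p = 0.41).

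Ces3b (ENSMUSG00000062181, 105083753 to 105093929) read 16.1, 12.9, 17.8, 43.2 and 13.5 FPKM in NIKhKO 1 to 5, against 45.0, 36.1, 51.8, 29.4 and 52.6 FPKM in NIKflox 1 to 5. NIKhKO 4 lay among the NIKflox livers, and the other 4 NIKhKO livers lay below all of them. The means were 20.7 ± 12.7 FPKM in NIKhKO and 43.0 ± 10.1 FPKM in NIKflox (SD, n = 5 each). The edgeR log2 fold change was −0.99 (SE 0.34, 95% interval −1.73 to −0.25), with an adjusted p of 0.35 and an exact permutation p of 0.024. Without NIKhKO 4 it was −1.45 (SE 0.20) and Ces3b was called, at an adjusted p of 0.037. That fit left out the liver farthest from the other NIKhKO livers for Ces3b, and called 24 genes over all genes tested. With any other single library left out, the log2 fold change ran from −1.11 to −0.84, at edgeR adjusted p of 0.38 to 0.62. Without NIKflox 2 and 4 it was −1.21 (adjusted p = 0.43), and the ranges of Ces3b no longer overlapped, where 4.12% of all genes tested were apart in that direction.

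**Figure D3:**
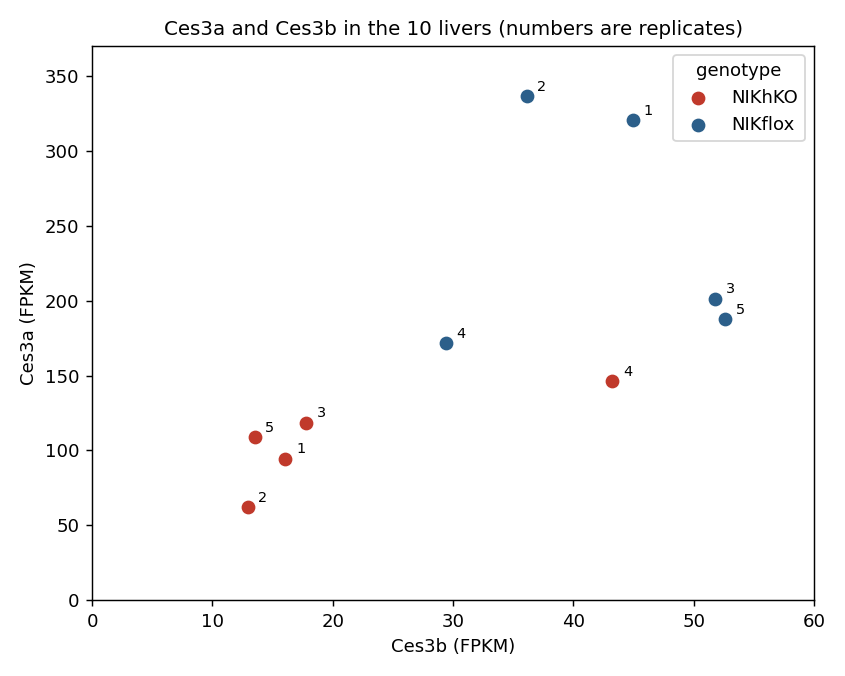
Ces3a against Ces3b, both in FPKM on axes that start at 0, with 1 point per liver numbered by replicate. NIKhKO 1, 2, 3 and 5 lie at the lower left, NIKhKO 4 at 43.2 FPKM of Ces3b and 146.4 FPKM of Ces3a lies nearest to the NIKflox livers.

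By the deposited FPKM the pair did not keep a fixed proportion, though this ratio also depends on how the authors' counting split shared reads. Ces3a was 5.89, 4.80, 6.67, 3.39 and 8.06 times Ces3b in NIKhKO 1 to 5, against 7.13, 9.31, 3.89, 5.83 and 3.57 times in NIKflox 1 to 5. The ranges of this ratio overlapped, with means of 5.76 ± 1.78 in NIKhKO and 5.94 ± 2.38 in NIKflox livers (SD, n = 5 each). Summed over both genes, Ces3 read 127 ± 41.8 FPKM in NIKhKO and 286 ± 77.8 FPKM in NIKflox livers. That was 5.07 ± 1.72% of the summed FPKM of all 10 members in NIKhKO and 10.6 ± 2.62% in NIKflox livers.

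Among the Ces1 genes, Ces1e had the largest log2 fold change. Ces1e (ENSMUSG00000061959, 93201218 to 93229619) encodes egasyn, which holds beta-glucuronidase in the endoplasmic reticulum. It read 89.0, 71.5, 57.7, 54.1 and 72.8 FPKM in NIKhKO 1 to 5, against 40.9, 37.3, 65.2, 52.9 and 59.2 FPKM in NIKflox 1 to 5. NIKhKO 1, 2 and 5 lay above every NIKflox liver, while NIKhKO 3 and 4 lay among them. The means were 69.0 ± 13.9 FPKM in NIKhKO and 51.1 ± 11.9 FPKM in NIKflox (SD, n = 5 each). The log2 fold change was 0.50 (SE 0.17, 95% interval 0.13 to 0.86). The unadjusted p was 0.012, the edgeR adjusted p 0.35 and the exact permutation p 0.063. Without NIKflox 2 and 4 the log2 fold change was 0.38 (adjusted p = 0.63). Gusb, the gene of beta-glucuronidase, named after its values were seen, read 4.13 to 5.86 FPKM in NIKhKO and 4.94 to 8.16 FPKM in NIKflox livers.

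The triacylglycerol hydrolases of the Ces1 group lay close between the genotypes. Ces1d read 337, 374, 308, 335 and 362 FPKM in NIKhKO 1 to 5, against 309, 301, 347, 299 and 339 FPKM in NIKflox 1 to 5. The ranges overlapped, and the log2 fold change was 0.17 (SE 0.08, 95% interval −0.02 to 0.35, edgeR adjusted p = 0.55). Without NIKflox 2 and 4 it was 0.10 (adjusted p = 0.82), and adipose tissue is known to express Ces1d. The part of the adipocyte transcripts of NIKflox 2 in this difference was not tested. Ces1f, a related triacylglycerol hydrolase, read 89.9, 101.9, 86.3, 87.4 and 100.2 FPKM in NIKhKO 1 to 5, against 99.0, 96.1, 104, 105.5 and 106.1 FPKM in NIKflox 1 to 5. NIKhKO 1, 3 and 4 lay below every NIKflox liver, and the log2 fold change was −0.07 (SE 0.07, 95% interval −0.23 to 0.09, edgeR adjusted p = 0.81), while exact permutation of mean FPKM gave p = 0.063. It was −0.11 without NIKhKO 5, −0.05 without NIKflox 5, −0.10 without NIKflox 2 and 4, and −0.13 by limma on log2(FPKM + 1), with no call in any of these.

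Ces1c, the plasma carboxylesterase, had the smallest difference of the 10 in edgeR. Its FPKM was 1524, 1799.8, 1413, 1523 and 1549 in NIKhKO 1 to 5, against 1685, 1622, 1620.0, 1461 and 1752 in NIKflox 1 to 5. The genotypes overlapped, and the log2 fold change was −0.0026 (SE 0.09, 95% interval −0.21 to 0.20, edgeR adjusted p = 0.997). Its near copy Ces1b was much lower in level, at 36.4, 39.3, 38.4, 61.4 and 39.9 FPKM in NIKhKO 1 to 5, against 61.2, 52.8, 59.9, 39.5 and 53.8 FPKM in NIKflox 1 to 5. NIKhKO 4 was the highest of all livers for Ces1b, NIKflox 4 lay among the remaining NIKhKO livers, and the log2 fold change was −0.25 (SE 0.18, 95% interval −0.64 to 0.14, edgeR adjusted p = 0.71). Without NIKhKO 4 it was −0.42 (adjusted p = 0.33), and without NIKflox 2 and 4 it was −0.38 (adjusted p = 0.62).

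Ces1g, whose loss in mice brings obesity and fatty liver, varied more between NIKflox livers than between NIKhKO livers. It read 124.9, 103.5, 137.7, 139.7 and 137.4 FPKM in NIKhKO 1 to 5, against 102.9, 75.6, 176.9, 66.7 and 149.5 FPKM in NIKflox 1 to 5. All NIKhKO livers lay inside the NIKflox range, and the coefficient of variation was 11.8% in NIKhKO and 41.6% in NIKflox livers. The log2 fold change was 0.24 (SE 0.25, 95% interval −0.32 to 0.79, edgeR adjusted p = 0.82). It was 0.44 without NIKflox 3, 0.09 without NIKflox 4 and −0.09 without NIKflox 2 and 4, with no call in any of these.

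The Ces2 members are lumenal hydrolases with less sequence in common, 83.3% of 1677 aligned coding bases. Ces2a read 69.1, 79.6, 69.5, 86.4 and 67.8 FPKM in NIKhKO 1 to 5, against 62.4, 53.4, 104.1, 73.9 and 83.3 FPKM in NIKflox 1 to 5. The NIKhKO livers again lay inside the NIKflox range, with a log2 fold change of 0.05 (SE 0.15, 95% interval −0.29 to 0.39, edgeR adjusted p = 0.96) and of −0.10 without NIKflox 2 and 4. Ces2e read 67.1, 80.1, 101.6, 75.9 and 80.3 FPKM in NIKhKO 1 to 5, against 64.1, 95.6, 76.8, 31.8 and 71.6 FPKM in NIKflox 1 to 5. NIKflox 4 was the lowest liver by a wide margin, and the log2 fold change was 0.31 (SE 0.25, 95% interval −0.24 to 0.86, edgeR adjusted p = 0.76). It was 0.13 without NIKflox 4, 0.19 without NIKhKO 3, 0.47 without NIKflox 2 and 0.25 without NIKflox 2 and 4, with no call in any of these.

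**Figure D4:**
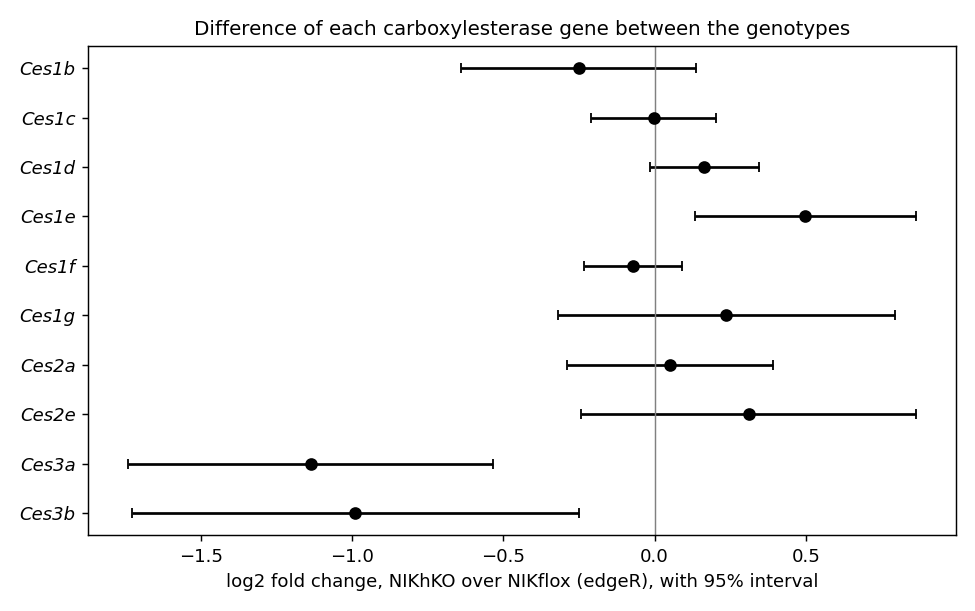
Log2 fold change of each member, NIKhKO over NIKflox, from edgeR, with its 95% interval (5 livers per genotype). The intervals of Ces3a, Ces3b and Ces1e lie to one side of 0, from −1.74 to −0.53, from −1.73 to −0.25 and from 0.13 to 0.86, and those of the other 7 members include 0.

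As a family the members summed to 2521 ± 139 FPKM in NIKhKO and 2698 ± 212 FPKM in NIKflox livers (SD, n = 5 each). Over all genes tested, the median log2 fold change was −0.05 by limma on log2(FPKM + 1), against −0.01 by edgeR. FPKM means and sums thus read slightly lower in NIKhKO livers than the edgeR fit does. The 6 Ces1 members together read 2239 ± 162 FPKM in NIKhKO and 2268 ± 169 FPKM in NIKflox livers. The 2 Ces2 members read 155 ± 13.6 FPKM in NIKhKO and 143 ± 28.6 FPKM in NIKflox livers. Ces3 was the subfamily whose summed ranges were apart, at 75.0 to 189.6 FPKM in NIKhKO and 200.8 to 372 FPKM in NIKflox livers. Most of this sum was Ces3a, whose own ranges were apart, while those of Ces3b overlapped. No library was high or low throughout. NIKhKO 4 was the highest NIKhKO liver for 5 members, Ces1b, Ces1g, Ces2a, Ces3a and Ces3b, while NIKflox 4 was the lowest of all 10 livers for Ces1d, Ces1g and Ces2e.

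**Figure D5:**
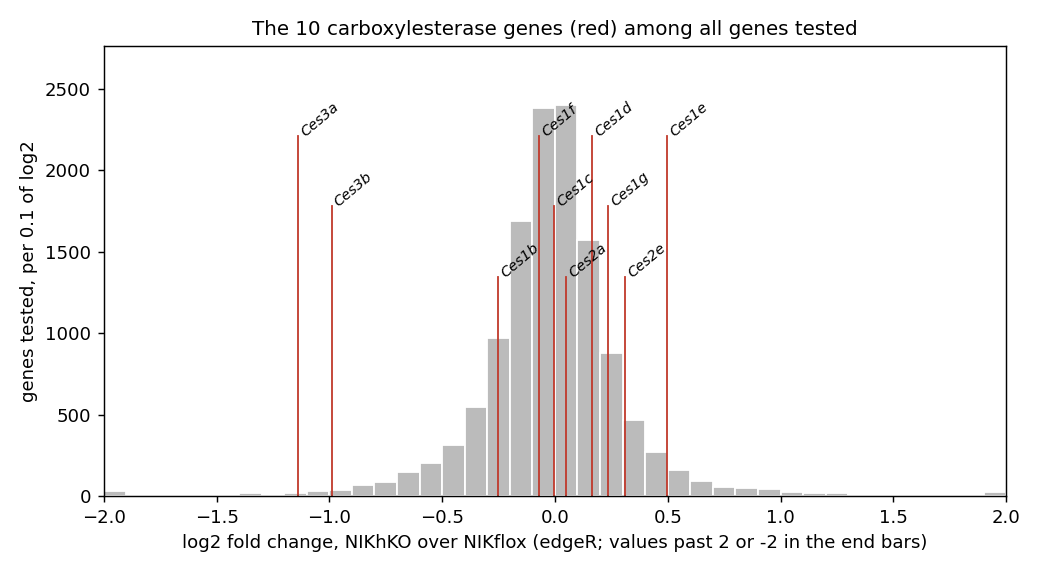
Grey bars count all 12730 genes tested by log2 fold change (NIKhKO over NIKflox, edgeR), and red lines mark the 10 members. Ces3a (−1.14) and Ces3b (−0.99) lie below the 5th percentile of all genes (−0.52), Ces1e (0.50) lies above the 95th percentile (0.46), and the other 7 members lie between them.

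Other acylglycerol lipases, together with proteins that activate or inhibit them, were listed beside the family. The list also holds enzymes of other lipids, such as the lysophospholipase Pnpla7. The counts of this list therefore do not all concern acylglycerol lipases. Of 19 genes tested 0 were called, 5 had positive and 14 negative log2 fold changes, and the median was −0.06. An unadjusted p below 0.05 was reached by 6 of them (1 higher and 5 lower in NIKhKO), beside 9.99% of all genes tested. Those lower were Pnpla7, Pnpla6, G0s2, Abhd6 and Lipg, not all of which are acylglycerol lipases. The smallest unadjusted p-values belonged to Lpl (lipoprotein lipase, 3.55 ± 0.671 FPKM in NIKhKO and 2.62 ± 0.520 FPKM in NIKflox livers), Pnpla7 and Pnpla6. Pnpla7, a lysophospholipase, averaged 7.86 ± 0.911 FPKM in NIKhKO and 11.4 ± 2.55 FPKM in NIKflox livers, and Pnpla6 2.33 ± 0.308 FPKM in NIKhKO and 3.02 ± 0.487 FPKM in NIKflox livers (SD, n = 5 each). Their log2 fold changes were 0.51, −0.48 and −0.31, each with an edgeR adjusted p of 0.34 to 0.36.

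Factors that act on Ces genes in mice include the xenobiotic receptors PXR and CAR, the bile acid receptor FXR, HNF4A and NRF2. Of 20 genes of this list 0 were called, 11 had positive and 9 negative log2 fold changes, and the median was 0.07. Among them 2 of 20 reached an unadjusted p below 0.05, 1 in each direction, beside 9.99% of all genes tested. The smallest unadjusted p-values were those of Cux2, a repressor with female-biased expression in mouse liver, of Nr1h4, which encodes FXR, and of Srebf1. Cux2 averaged 1.46 ± 0.595 FPKM in NIKhKO and 2.99 ± 0.971 FPKM in NIKflox livers (SD, n = 5 each; log2 fold change −0.99, edgeR adjusted p = 0.29). Nr1h4 averaged 36.8 ± 2.31 FPKM in NIKhKO and 31.8 ± 4.11 FPKM in NIKflox livers (log2 fold change 0.28, edgeR adjusted p = 0.29). Srebf1 averaged 51.8 ± 8.88 FPKM in NIKhKO and 41.0 ± 10.9 FPKM in NIKflox livers (log2 fold change 0.40, edgeR adjusted p = 0.50). Nr1i2, the gene of PXR, read 24.6 to 32.1 FPKM in NIKhKO and 23.1 to 33.6 FPKM in NIKflox livers. For Nr1i3, the gene of CAR, NIKhKO livers read 51.8 to 85.7 FPKM and NIKflox livers 55.3 to 79.6 FPKM. Both were named after their values were seen.

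Targets of CAR, PXR and NRF2 were listed together with other Cyp2b and Cyp3a genes, so the counts do not all concern such targets. The list gave 0 calls among 24 genes tested, with 15 positive and 9 negative log2 fold changes and a median of 0.08. An unadjusted p below 0.05 was reached by 7 of them (6 higher and 1 lower in NIKhKO), beside 9.99% of all genes tested. Cyp2b13, a female-biased cytochrome P450, averaged 351 ± 60.2 FPKM in NIKhKO and 163 ± 34.1 FPKM in NIKflox livers (log2 fold change 1.16, edgeR adjusted p = 0.056). Cyp3a44 averaged 6.11 ± 2.38 FPKM in NIKhKO and 36.2 ± 30.8 FPKM in NIKflox livers (log2 fold change −2.53, edgeR adjusted p = 0.26). Cyp2b10, the classical CAR target, averaged 103 ± 21.0 FPKM in NIKhKO and 58.1 ± 22.2 FPKM in NIKflox livers (log2 fold change 0.90, edgeR adjusted p = 0.26). Ces2a, which CAR and PXR also induce in mice, had a log2 fold change of 0.05. Cyp2b and Cyp3a genes have close copies, so their levels are uncertain.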

How the data were processed

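The deposited table holds the authors' FPKM values and whole-number estimated counts, which the authors deposited without normalization. Genes with a count of 0 are mostly listed at 0.0001 FPKM. Libraries were made with oligo(dT) beads, per the labels' protocols, and no source used here says whether counting used strand. Tools named in the submitters' processing notes, in no stated order, are StringTie 1.3.4d, HISAT2 2.0.4, edgeR and cutadapt 1.9. The notes also name hg38, although the identifiers are mouse. Low counts pile up at 4 (on average 907 genes at 4, 330.5 at 3 and 175.8 at 5 per library), so totals may overstate depth.

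From the counts, edgeR 4.0.16 in R 4.3.3 (quasi-likelihood, TMM, two-sided, Benjamini-Hochberg) tested 12730 genes, those whose mean FPKM reached 0.5. Calls needed an adjusted p below 0.05. Log2 fold changes are NIKhKO over NIKflox. Their standard errors divide them by the square root of F, and 95% intervals use the t distribution. Single members were also compared by exact permutation of mean FPKM, without TMM and without adjustment over the members. The fit was tested on simulated data. Alternatives were DESeq2 1.42.0, limma 3.58.1 on log2(FPKM + 1) and log2(FPKM + 0.1), voom with sample weights, RLE, other filters, robust shrinkage, counts divided by 4, a replicate block and left-out libraries.

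The members and lists were chosen with earlier results of these data known. All 10 members are named. Of each list the called genes, or else the 3 with the smallest p, are named, with cell type lists given by sums. The adipocyte sum without Car3 was added after seeing the data.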

Additional observations from a re-analysis of the deposited data

Results flagged for a closer look

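Of 20 groups of 5 livers, 1 per member and genotype, 2 held a liver far from the other 4, where chance alone marks about 1 group in 20. Both were NIKhKO 4. Ces1b read 61.4 FPKM there, with 0.860 of the whole NIKhKO range between it and the next liver, and Ces3b read 43.2 FPKM, with 0.840 of the range. Its Map3k14 level was 0.389 FPKM, within the NIKhKO range of 0.347 to 0.443 FPKM. Why this liver stood apart was not tested.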

How the results depend on the processing

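Over 210 member values (21 alternatives for each of 10 members), 192 kept their direction and their side of the threshold, 2 became calls and 16 changed sign. The 2 calls were Ces3a with DESeq2 and Ces3b without NIKhKO 4. Of the members, 0 were called in the main test, 1 with DESeq2 and 0 to 1 when single libraries were left out. Ranges were apart, lower in NIKhKO, for 1 member, beside 1.59% of all genes tested. Without single libraries they were apart for 1 to 2 members, beside 2.06% to 3.20% of all genes, with 2 members and 3.20% without NIKhKO 4. Without NIKflox 2 and 4 they were apart for 2 members, beside 4.12% of all genes. Sign changes were confined to Ces1c, Ces1g and Ces2a, whose intervals include 0. Ces1c was at 0.0041 with RLE, 0.0085 without a filter, 0.011 with filterByExpr, 0.0041 with DESeq2, 0.0016 with the replicate block, and −0.049 to 0.037 without single libraries. Ces1g was at −0.0917 without NIKflox 2 and 4. Ces2a was at −0.0286 with voom, −0.10 without NIKflox 2 and 4, and −0.046 to 0.19 without single libraries. Over all genes edgeR called 3, and 1272 had an unadjusted p below 0.05. DESeq2 called 207, robust shrinkage 6, voom 5, and edgeR without NIKflox 2 and 4 called 1. Limma called 0 at either pseudocount, with 1374 and 1364 genes at an unadjusted p below 0.05. Without single libraries edgeR called 0 to 24, with 24 without NIKhKO 4, 3 without NIKflox 3 and 0 without each of the other libraries. The cause of these shifts was not tested.

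Correlations of same-numbered livers, over deviations from the genotype mean, ran from −0.32 to 0.03. Differently numbered livers were not compared, so whether shared replicate numbers pair the livers was not tested. With the replicate block 2 genes and 0 members were called. Counts of Ces3b, the member with the fewest, ran from 2359 to 8867 per library, and totals may overstate depth.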

Other observations

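Partners of carboxylesterases in VLDL assembly and other ester-splitting enzymes were also read from the fit over all genes. Of 15 VLDL assembly genes 0 were called, 8 had positive and 7 negative log2 fold changes, and the median was 0.002. At an unadjusted p below 0.05 stood 3 of them (1 higher and 2 lower in NIKhKO), beside 9.99% of all genes tested. Those with the smallest unadjusted p were Sar1b, Apoa4 and Mttp. Sar1b, a GTPase of vesicle budding, averaged 115 ± 6.38 FPKM in NIKhKO and 101.8 ± 6.59 FPKM in NIKflox livers (SD, n = 5 each; log2 fold change 0.24, edgeR adjusted p = 0.35). Apoa4, an apolipoprotein, averaged 508 ± 233 FPKM in NIKhKO and 913 ± 145 FPKM in NIKflox livers (log2 fold change −0.77, edgeR adjusted p = 0.38). Mttp, which loads lipid onto nascent lipoprotein, averaged 30.5 ± 4.20 FPKM in NIKhKO and 38.9 ± 3.55 FPKM in NIKflox livers (log2 fold change −0.28, edgeR adjusted p = 0.46).

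Of 12 other ester and epoxide hydrolases tested 0 were called, 7 had positive and 5 negative log2 fold changes, and the median was 0.07. Here 3 of 12 had an unadjusted p below 0.05 (2 higher and 1 lower in NIKhKO), beside 9.99% of all genes tested. Bphl, a hydrolase that activates ester prodrugs, averaged 56.3 ± 8.14 FPKM in NIKhKO and 43.1 ± 3.51 FPKM in NIKflox livers (SD, n = 5 each; log2 fold change 0.45, edgeR adjusted p = 0.23). Cmbl averaged 97.8 ± 8.58 FPKM in NIKhKO and 83.9 ± 4.31 FPKM in NIKflox livers (log2 fold change 0.29, edgeR adjusted p = 0.32). Ephx1, the microsomal epoxide hydrolase, averaged 196 ± 21.1 FPKM in NIKhKO and 292 ± 81.8 FPKM in NIKflox livers (log2 fold change −0.50, edgeR adjusted p = 0.37).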
